A study of Mus musculus with 2 samples.

Results

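Mir221 and Mir222 are neighbouring microRNA genes on the mouse X chromosome whose main products carry the same seed, the stretch near the 5′ end that pairs with target messenger RNAs. They were chosen by symbol in the GENCODE M21 annotation, and both were found among the 2202 microRNA gene rows of the count tables. The rule itself uses symbols and no measured value, though the pair was picked with earlier results of these data known. Small RNA was sequenced from the hippocampus of female B6CASTF1/J mice aged 14 days, a first-generation cross between C57BL/6J and CAST/EiJ. The labels describe the tissue as a layer of hippocampus without naming the layer, and give neither a treatment nor an engineered allele. The labels give 1 group, sampled as 2 biological replicates. Per the labels each replicate drew on 3 females, which makes a library a pool, and differences between pools cannot be told apart from differences in library preparation. In such bulk tissue, fewer cells of a type and less RNA per cell cannot be told apart.

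MicroRNAs are cut from hairpin precursors, loaded into Argonaute proteins and guided by their seed to messenger RNAs, whose translation or stability they lower. miR-221 and miR-222 are processed from a common primary transcript. They are best known for lowering Cdkn1b, an inhibitor of the cell cycle, and Kit, a receptor of stem and progenitor cells. In the nervous system they have been tied to neurite growth and neuronal excitability, and outside it they are abundant in endothelium and smooth muscle.

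The mature products are shown first because the pair shares a seed and differs beyond it. The sequences are RefSeq entries on build GRCm38.p6, written 5′ to 3′, with the seed (bases 2 to 8) in capitals.
mmu-miR-221-3p: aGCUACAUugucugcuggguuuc
mmu-miR-222-3p: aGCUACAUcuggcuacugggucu
mmu-miR-221-5p: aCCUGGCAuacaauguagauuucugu
The 3p products lie at chrX:19146307-19146329 and chrX:19146901-19146923, both on the minus strand, and are 23 bases each. Their first 8 bases are identical, and so the seed GCUACAU is common to both. Compared base by base without gaps, 11 of the 23 positions were identical and 12 differed. Counted from 1 at the 5′ end, with the miR-221-3p base first, the differences were U9C, G10U, U11G, C12G, U13C, G14U, C15A, U16C, G17U, U20G, U22C and C23U. A second shared run, CUGGGU, begins at base 15 of miR-221-3p and at base 16 of miR-222-3p, a shift of a single base. GC content was 47.8% in miR-221-3p and 52.2% in miR-222-3p. The product of the other arm of Mir221, miR-221-5p at chrX:19146344-19146369, has the unrelated seed CCUGGCA.

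The hairpins are given because each count below is for a whole precursor gene, in which the products of both arms are added together. The 3p product is in capitals.
Mir221 hairpin: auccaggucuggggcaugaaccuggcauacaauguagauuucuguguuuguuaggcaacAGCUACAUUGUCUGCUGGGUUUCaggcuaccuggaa
Mir222 hairpin: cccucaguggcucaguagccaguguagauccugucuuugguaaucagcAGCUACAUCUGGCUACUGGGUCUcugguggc
Mir221 (ENSMUSG00000065422.1) spans chrX:19146294-19146388, 95 bases, and Mir222 (ENSMUSG00000065471.1) spans chrX:19146893-19146971, 79 bases. Both lie on the minus strand, so Mir222 is transcribed before Mir221, and 504 bases separate them. Neither overlaps another annotated gene, exon or intron. The next annotated gene upstream on the same strand is Gm14636, a processed transcript that lies 10010 bases before Mir222. Downstream, the nearest gene that is not a microRNA is the pseudogene Gm5383, at 203.1 kb from Mir221. The longest run of bases shared by the pair's hairpins was 9. Against the other 2201 microRNA genes, on either strand, the longest shared run was 13 bases for Mir221, with Mir7213, and 12 bases for Mir222, with Mir7051. By comparison, 1087 of the 2202 genes had a run of 20 or more bases in common with a microRNA gene at another locus, and reads of such genes are less certain. Matches to the rest of the genome were not tested.

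Counts assigned to microRNA genes on the sense strand summed to 4764797 in replicate 1 and 2852269 in replicate 2. Levels are given as CPM, counts per 1000000 counts of these totals. Reads that map to several places, 40.8% and 37.1% of all reads, were not assigned to a gene. Intervals and tests on reads cover counting error only: without molecular identifiers, copies of the same molecule were counted as separate reads. As a check of the tissue, 14 neuron-enriched microRNA genes summed to 25565 and 26046 CPM. Of these, 11 reached 10 counts in each library and none was at 0 in both; 5 of 11 tested were higher and 4 lower in replicate 2, where 64.9% of all 450 genes tested passed, and 9 of the 11 are uncertain. Among the defining markers, the 3 genes of Mir124a had 12 and 20 counts in all. All 3 copies of Mir124a are uncertain, since 20 or more of their bases recur at another locus. Mir132 had 22289 and 21282 counts (4678 and 7461 CPM) and was higher in replicate 2. Mir137 had 31093 and 11846 counts (6526 and 4153 CPM) and was lower.

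Both members were detected in both pools, and Mir221 had more counts than Mir222 in each. Ratios between them are ratios of counts, and how evenly the libraries captured both sequences was not tested. Mir221 had 12027 counts in replicate 1 and 11815 in replicate 2. These are levels of 2524 CPM (exact Clopper-Pearson 95% interval 2479 to 2570) and 4142 CPM (4068 to 4218). The mean level of Mir221 was 3333 ± 1144 CPM (SD, n = 2). It ranked 64 among all 2202 genes in replicate 1 and 42 in replicate 2. Ranks, and the median level given below, rest on assigned counts. Genes whose reads map to several places may therefore stand too low in them.

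Mir222 had 3477 counts in replicate 1 and 1560 in replicate 2, or 730 CPM (706 to 754) and 547 CPM (520 to 575). Its mean level was 638 ± 129 CPM (SD, n = 2), and it ranked 121 and 135. Thus Mir221 was higher in replicate 2 than in replicate 1, and Mir222 the reverse, with no overlap of the counting intervals for either gene. Differences beyond counting error were common between these libraries, passing the test described below in 64.9% of the 450 genes tested. For scale, the median mean level of the 409 genes that reached 10 counts in each library was 109 CPM. Mir221 and Mir222 together held 0.325% of the counts in replicate 1 and 0.469% in replicate 2.

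**Figure D1:**
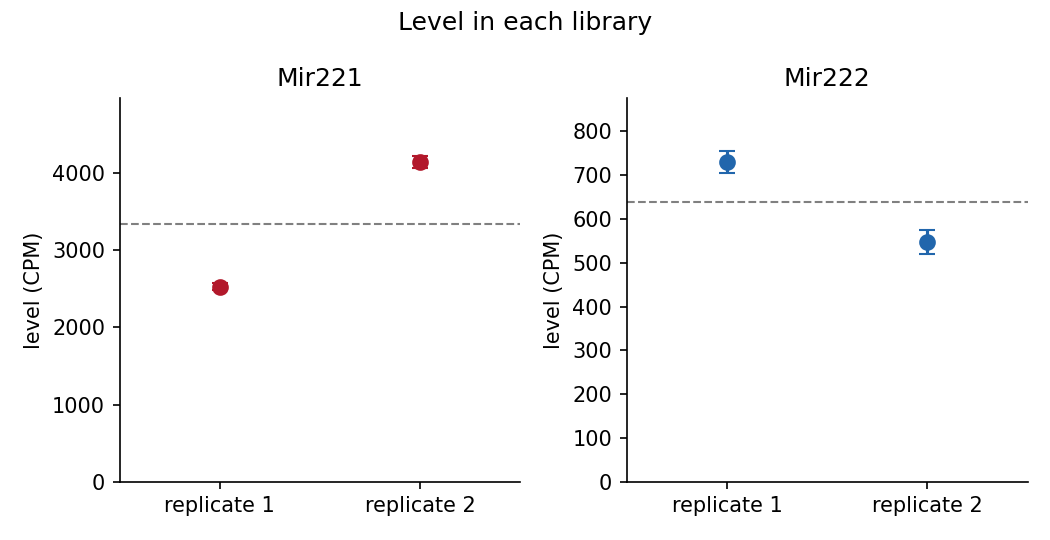
Level of Mir221 (left) and Mir222 (right) in CPM, from 0, in each library; points are single libraries, bars are exact 95% counting intervals and dashed lines the mean of the 2 libraries. Mir221 is higher in replicate 2 (4142 against 2524 CPM) and Mir222 is lower (547 against 730 CPM).

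All counts of the pair were on the sense strand. The opposite-strand column held 0 counts for both genes in both libraries, which allows up to 0.630 CPM in replicate 1 and 1.05 CPM in replicate 2. The unstranded column gave the same counts as the sense column for Mir221 and for Mir222.

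Beyond the pair, the seed occurs in another annotated gene. Among 1738 mature entries of the RefSeq table, GCUACAU was the seed of 3, namely miR-221-3p, miR-222-3p and miR-1928. Mir1928, on chromosome 1 at 74206554 to 74206620, had 0 counts in both libraries, so its level was at most 0.630 and 1.05 CPM. Counts assigned to genes with this seed therefore came from Mir221 and Mir222.

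The pair's composition differed between the pools. Of the counts of both genes, Mir222 made up 22.4% in replicate 1 (exact 95% interval 21.8 to 23.1, 15504 counts) and 11.7% in replicate 2 (11.1 to 12.2, 13375 counts). There were 3.46 counts of Mir221 for each count of Mir222 in replicate 1 and 7.57 in replicate 2. The share of Mir222 was thus 10.8 percentage points lower in replicate 2, since the difference came to -10.8. On the log2 scale the odds of Mir222 against Mir221 changed by -1.13 (exact 95% interval -1.23 to -1.04). This difference was larger than counting error (Fisher's exact test, two-sided, p = 6.4e-131). It does not depend on library size, because both genes were counted in the same reads. The mean share over the pools was 17.0% ± 7.61 (SD, n = 2). The test compares these libraries, and with 1 library per pool it gives no measure of the spread among pools.

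Across all genes, each log2 ratio of replicate 2 to replicate 1 was set against the share expected from library sizes scaled by edgeR's TMM. For Mir221 the log2 ratio was 0.84 (95% counting interval 0.80 to 0.87), a 1.79-fold higher level in replicate 2, with a Benjamini-Hochberg adjusted p under 1e-300 by the exact binomial test. For Mir222 it was -0.29 (-0.38 to -0.21), a 1.23-fold lower level, with an adjusted p of 4.2e-11 by the same exact test. Both passed, in opposite directions. Such calls were common between these libraries: 64.9% of the 450 genes tested, those with 20 or more counts in all, passed, 32.9% as higher and 32% as lower in replicate 2.

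Genes as abundant as the members passed even more often, so the calls themselves do not set the members apart. Of 53 other genes with a mean level within 2-fold of Mir221, 50 passed (94.3%), 23 higher and 27 lower, and the median size of their log2 ratio was 0.37. A difference larger in size than that of Mir221 was found in 13 of these genes. Of 63 other genes within 2-fold of Mir222, 58 passed (92.1%), 30 higher and 28 lower, with a median size of 0.45. For Mir222, 40 of the 63 had a larger difference. Over all 450 genes, whose median size was 0.51, a larger difference than that of Mir221 was seen in 124 (27.6%) and a larger one than that of Mir222 in 308 (68.4%).

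**Figure D2:**
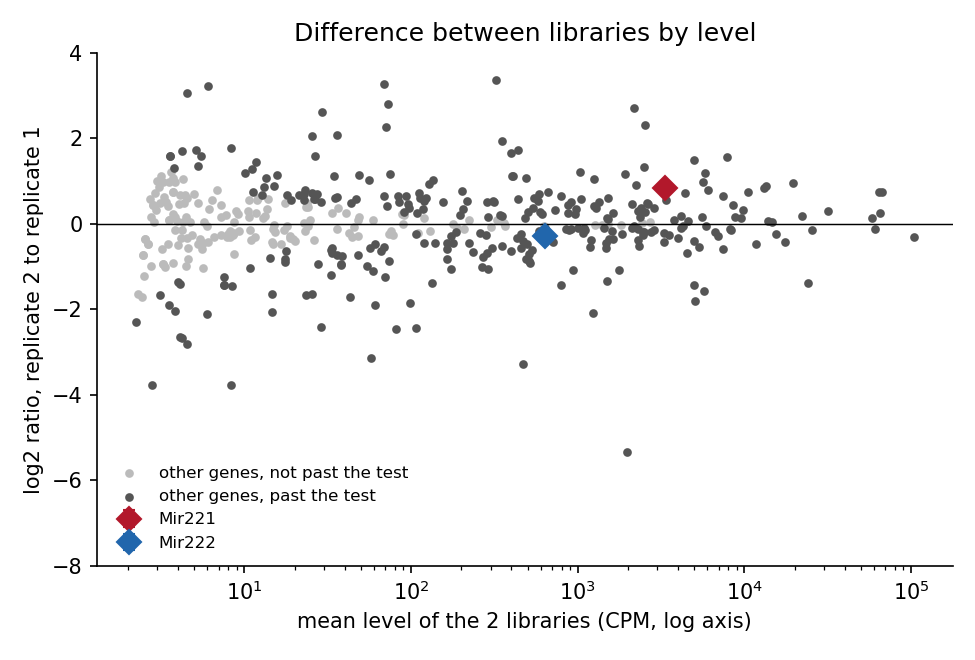
Log2 ratio of replicate 2 to replicate 1 against mean level (CPM, log axis) for 450 microRNA genes; dark points passed the exact binomial test, light points did not, and diamonds are Mir221 and Mir222, whose counting intervals are smaller than the symbols. Mir221 lies at 0.84 and Mir222 at -0.29, both inside the spread of genes of like level.

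Other microRNA genes that lie equally close together were used to place the difference within the pair. On the same strand, 77 pairs of genes, formed by 99 genes, had starts within 1000 bases and a mean count of at least 50 for each gene. Pairs of the same cluster share genes and are not independent, and 35 of the 77 lie on chromosome 12. The starts of Mir221 and Mir222 are 599 bases apart. Their log2 ratios differed by 1.13, against a median of 0.51 over the pairs and quartiles of 0.18 and 0.89. A larger difference was found in 11 pairs.

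Opposite calls for neighbours were found in 27 of the 77 pairs (35.1%), Mir221 and Mir222 among them. The smallest difference was that of Mir106b and Mir25, members of a cluster linked to proliferation, at 0.24 for both. The largest was that of Mir543 and Mir666 on chromosome 12, at 2.71 and -0.10. In level, Mir221 exceeded Mir222 by 4.73-fold over the summed counts. The median between the more and the less abundant gene of a pair was 6.86-fold. It includes pairs with uncertain genes, which ran from 1.06-fold (Mir15a and Mir16-1) to 310-fold (Mir23b and Mir24-1). No median without these pairs was computed, so the place of Mir221 and Mir222 by level was not settled.

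A shared seed was found in 17 of the pairs, and among these the median difference was 0.35. Most of the 17 pairs hold an uncertain gene, and this median was not recomputed without them. The 2 pairs of this kind with a larger difference than Mir221 and Mir222 were Mir34c with Mir34b, microRNAs of ciliated cells, at -0.92 and -2.42, and Mir195a with Mir497, at -1.34 and -0.04. Opposite calls were found in 3 of the 17, which were Mir221 with Mir222, Mir93 (-0.11) with Mir106b (0.24), and Mir98 (0.38) with Mirlet7f-2 (-0.24). Mirlet7f-2 is uncertain, having 20 or more bases in common with another locus. The activity-induced pair Mir132 and Mir212, which also shares a seed, was higher in replicate 2 for both genes, at 0.80 and 1.13. These pairs other than the smallest and largest were picked for naming after their values were seen, and no test was made of the pair against the others.

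**Figure D3:**
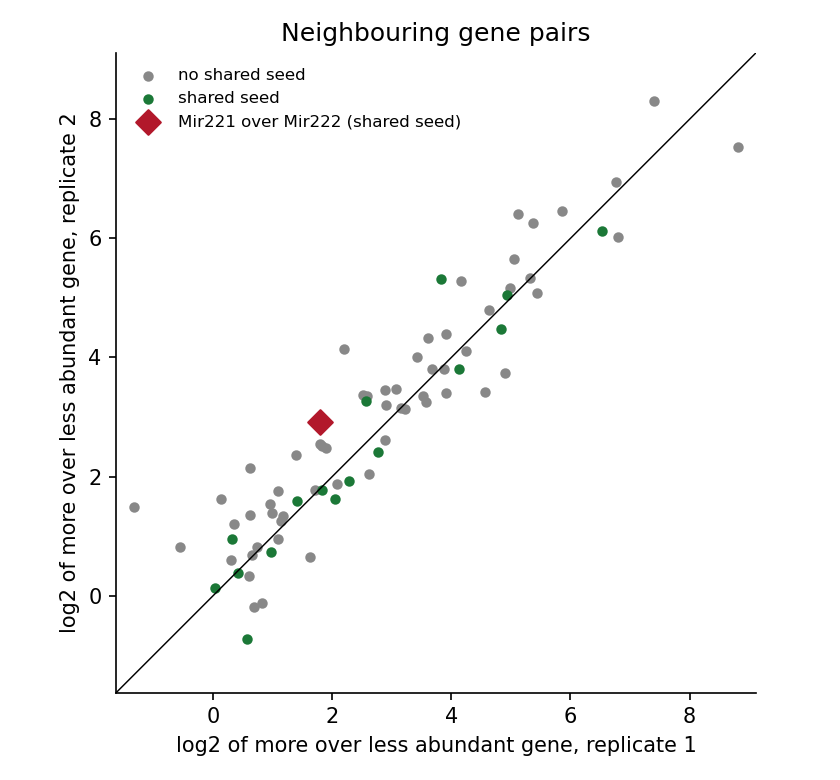
Log2 ratio of the counts of the more abundant over the less abundant gene in replicate 1 (horizontal) and replicate 2 (vertical) for 77 neighbouring pairs; the line marks equal ratios, and green points and the diamond are pairs with a shared seed. Mir221 over Mir222 moved from 1.79 in replicate 1 to 2.92 in replicate 2 and lies above the line.

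By mean level, Mir221 was the fourth and Mir222 was number 13 among the 142 microRNA genes of the X chromosome, of which 38 reached 10 counts in each library. Apart from the pair, 39 genes of this chromosome were tested. Of these, 12 were higher and 19 lower in replicate 2, beside 32.9% higher and 32% lower over all genes tested. Their median log2 ratio was -0.31, beside 0.01 over all 450 genes. The most abundant, Mir652 and Mir361, had log2 ratios of 0.06 (0.04 to 0.08) and 0.06 (0.03 to 0.09). Mir221 thus lay above the chromosome's median and Mir222 close to it.

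The genes nearest to each member over the 2 libraries were found by Euclidean distance in log2(CPM + 1). Those nearest to Mir221 were Mir181b-2 (distance 0.20), Mir98 (0.42) and Mir532 (0.50). Mir181b-2, of a family expressed in neurons and lymphocytes, stood at 2855 and 3892 CPM and is uncertain for the same reason. Mir98, a let-7 relative on the X chromosome, stood at 2598 and 3108 CPM, and Mir532, also on the X chromosome, at 2320 and 2965 CPM. All 3 were higher in replicate 2, with log2 ratios of 0.57, 0.38 and 0.48, each smaller than that of Mir221.

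Nearest to Mir222 were Mir146 (distance 0.14), a microRNA of inflammatory signalling, Mir338 (0.17), abundant in oligodendrocytes, and Mir700 (0.20). Mir146 stood at 683 and 588 CPM, Mir338 at 664 and 590 CPM and Mir700 at 640 and 526 CPM. Their log2 ratios were -0.09, -0.05 and -0.16, and that of Mir338 did not pass the test. Mir146 is uncertain in the same way. With only 2 libraries, likeness of this kind reflects level and a single ratio.

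Other microRNAs tied to the processes for which the pair is known did not share a single direction. Of 10 proliferation-linked genes, from the Mir17 and Mir106b clusters together with Mir21a, 8 could be tested, against a background of 64.9% passing. Of these, 5 were higher and 3 lower, and their median was 0.24 on the log2 scale. The most abundant, Mir93 and Mir17, were at -0.11 (-0.14 to -0.07) and 0.27 (0.23 to 0.31). The 10 genes summed to 10564 CPM in replicate 1 and 10258 CPM in replicate 2. Summed CPM, here and for the lists below, is not scaled by TMM as the log2 ratios are. Total counts as library sizes would shift the log2 ratios by -0.12. Mir221 plus Mir222, at 3254 and 4689 CPM, held less than this group in each library.

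All 12 genes tied to neuronal excitability were tested, and 8 were higher and 4 lower in replicate 2 (median 0.64), where 64.9% of all genes tested passed, and 94.3% of those with levels like that of Mir221. Mir324 led the group by level at 0.15 (0.13 to 0.17), followed by Mir132 at 0.80 (0.77 to 0.82). Of these 12 genes 6 are uncertain through bases shared with another locus.

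Markers of other cell types also differed between the libraries, and their part in the levels of Mir221 and Mir222 was not tested. The counts that follow stand beside 32.9% of all genes tested that were higher in replicate 2 and 32% that were lower. Blood vessel genes, listed because both members are known from endothelium and smooth muscle, summed to 16008 CPM in replicate 1 and 20366 CPM in replicate 2. Of 5 such genes, all detected, 1 was higher and 3 lower, with a median of -0.46. The endothelial Mir126a was at 0.88 (0.86 to 0.90), and Mir143, abundant in smooth muscle, was at -0.67 (-0.71 to -0.64). Microglial and other immune genes summed to 6496 and 9138 CPM, with 1 of 7 higher, Mir342 at 0.97 (0.94 to 1.0), and 4 lower, among them Mir150 at -0.12 (-0.19 to -0.05), and a median of -0.29.

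Genes of oligodendrocytes summed to 1929 and 3198 CPM, with 2 of 3 tested higher (median 0.67). Both of the higher genes are uncertain, among them Mir219a-2 at 1.17. Mir338, at -0.05, is not uncertain and did not pass. Red blood cell genes summed to 290.0 and 722 CPM, with 1 of 3 higher and a median of -0.17. Mir451a was higher at 1.73, and Mir144 at -0.21 did not pass. Choroid plexus and ciliated cell genes summed to 3948 and 1187 CPM, and all 4 tested were lower (median -1.76). Among them were Mir204 at -2.09 and Mir449a at -1.42, while Mir449b had 0 counts in both libraries. Epithelial genes summed to 173 and 543 CPM, with 7 of 9 tested higher, including Mir429 at 2.82 and Mir200c at 2.26, and 1 lower (median 2.26). For vessels, immune cells and red cells the sum was higher in replicate 2 while the median log2 ratio was below 0. The same held for the neuron genes, whose median was -0.24.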

How the data were processed

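MicroRNA libraries from 2 pools of hippocampus were analysed, 1 group with no contrast between conditions. The authors deposited raw counts per microRNA gene, made on mm10 (GRCm38) with GENCODE M21 per the text filed with them; the aligner is not given in the sources used here. Of the strand-specific columns, the one with the larger sum served as sense. Lines for unmapped (17.1% and 20.6% of reads), multi-mapping and unassigned reads (5.98% and 5.82%) stayed out of library sizes, and 36.1% and 36.4% of reads were assigned. All 2202 identifiers matched the annotation.

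Library sizes were scaled by TMM (edgeR 4.0.16, R 4.3.3). The 450 genes with 20 or more counts in all were tested by a two-sided exact binomial test on the counts of the 2 libraries, with Benjamini-Hochberg adjustment at 0.05; with 1 library on each side no quasi-likelihood fit was possible. Other work used Python 3.11.15, scipy 1.17.1 and pandas 2.3.3. The labels name separate biological replicates, and p-values measure only differences between these libraries. On simulated counts for 442 genes, with counting noise only and known library sizes, the step called 2.05% of 244 unchanged genes. It called 83.7% of 98 genes changed 2-fold and 97% of 100 genes changed 4-fold. Differences between pools were not simulated, so 2.05% is not a rate of false calls between these libraries.

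Members and lists were chosen with earlier results of these data known. Named by rule were the members, the 3 genes nearest to each, the 2 most abundant genes of each list, and the neighbouring pairs with the smallest and largest difference. The comparison with genes of like level (within 2-fold) was added after seeing the values. Genes are called uncertain where a run of 20 or more bases recurs in a microRNA gene at another locus. Alternatives were size factors of DESeq2 1.42.0, total counts or all reads as library sizes, the unstranded column, other filters (none, or 200), thinning of the deeper library, leaving out Mirlet7b, leaving out each replicate, a threshold of 0.01 and pseudocounts of 0.1 and 10.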

Additional observations from a re-analysis of the deposited data

How the results depend on the processing

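Under 9 alternatives each, the log2 ratio of Mir221 stayed positive (0.71 to 0.86) and that of Mir222 negative (-0.42 to -0.27), and both remained past the threshold; the highest adjusted p for Mir222 by the exact binomial test was 1.2e-08. Total counts as library sizes shifted the median log2 ratio of all genes by -0.12, and all reads by -0.11, shifts that move every gene alike. With no filter on low counts Mir221 was at 0.76 and Mir222 at -0.37. The difference in the share of Mir222 was between -10.8 and -10.3 percentage points under its 3 alternatives, but this range tests little. The unstranded column held the same counts for both genes as the sense column, so it could not move the share. A stricter threshold does not enter the share either. Thinning the deeper library gave -10.3, and random thinning leaves a share unchanged on average. With all reads in place of assigned reads as the denominator, the mean level was 1209 CPM for Mir221 and 231 CPM for Mir222, lower because the denominator is larger. Leaving out a replicate gives the level of the other library with no error, and no ratio. The counts of genes called stayed within 1.5 times. With total counts or all reads as library sizes, however, more genes were lower than higher in replicate 2. The near balance of higher and lower calls thus depends on the scaling. Pairs called in opposite directions made up 38.8% without uncertain genes and 31.0% without chromosome 12, both alternatives chosen after seeing the data. The share of such pairs was not recomputed with other library sizes, which move log2 ratios against 0 and can change these calls. Pseudocounts of 0.1 and 10 gave the same nearest genes. No paired analysis was possible because there is 1 group. The number of pools, 2, limits these results, and depth sets the counting intervals given with each value.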
